A study of Mus musculus with 4 samples.

Results

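Genes of the Bcl2 family, the caspases and their inhibitors, and the death receptors with their adaptors were followed in 2 mouse lines. NSCL61-sox11, labelled sox11-expressing after the transcription factor Sox11, was represented by 2 arrays, and the line NSCL61 by 2. Both lines are p53-/- on a C57BL/6 background and were derived from neuroepithelial cells of the telencephalon of E14.5 embryos, grown as floating spheres without serum and with PDGF, bFGF and forskolin, and both are labelled as resembling glioma-initiating cells. The labels name no promoter or vector for Sox11, each group is 1 line, and whether the arrays within a line stem from different cultures is not given. The p-values therefore reflect array-to-array spread that may be technical. Of 50 genes chosen for their part in cell death, 44 had an Affymetrix probe set assigned to them alone, among 18193 such genes on the array. Each gene was read from its probe set with the highest mean over the 4 arrays. The levels are the authors' deposited values, taken as log2. Bax, Bcl2a1a, Naip1, Ripk1, Traf3 and Pdcd5 had no probe set to themselves and were not analysed here. Tnfrsf25, Ripk3 and Dapk2 lay below the level filter, which left 41 members tested.

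In the intrinsic pathway of apoptosis, BH3-only proteins neutralise the pro-survival Bcl2 proteins or activate Bax and Bak1. Those effectors open the outer mitochondrial membrane, cytochrome c leaves, and the apoptosome activates Casp9. In the extrinsic pathway, death receptors recruit Fadd and Casp8, a step that Cflar restrains. IAP proteins, encoded by the Birc genes and Xiap, block caspases or steer receptor signalling towards survival. Casp1, Casp4 and Casp12 form the inflammatory branch, in which Casp1 and Casp4 drive pyroptosis, a lytic death. Neural stem cells use these pathways to set their numbers, and several of the genes are p53 targets in cells that have p53.

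Levels are on the log2 scale of the deposited values throughout, and fold changes are NSCL61-sox11 over NSCL61. A gene was called at a limma p adjusted under 0.05 over all probe sets tested. Arrays of 1 line correlated at 0.994 and 0.995 (Pearson's r across tested probe sets, which are not replicates), and arrays of different lines at 0.968 to 0.972. Sox11 lay at 7.74 and 7.97 in NSCL61-sox11, against 5.09 and 4.82 in NSCL61, as the labels state. Of the neural stem cell markers, Nes lay at 9.37 and 9.51 in NSCL61-sox11 and 9.48 and 9.31 in NSCL61, and Fabp7 and Prom1 lay below the filter in both lines. Of the 8 tested, Sox2 (log2 fold change -1.70, adjusted p = 0.0019), Pax6 (-0.45, adjusted p = 0.040) and Vim (-0.21, adjusted p = 0.020) fell in NSCL61-sox11, Slc1a3 rose (1.19, adjusted p = 0.0030) and 4 did not pass. That is 50% called, against 19.2% of all genes tested. An exact permutation test of 2 arrays against 2 cannot give a two-sided p below 0.333.

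The inflammatory caspases and the IAP genes Birc2 and Birc3 rose in NSCL61-sox11. Of 41 members, 7 rose, 4 fell and 30 did not pass, so 26.8% were called, against 19.2% of the 13084 genes tested, of which 10.0% rose and 9.19% fell. The genes that rose were Casp12, Casp1, Birc3, Casp4, Birc2, Traf2 and Bid, and those that fell were Casp6, Cflar, Bok and Htra2. Of the members, 3 changed at least 2-fold: Casp12, Casp1 and Birc3. The median log2 fold change of the members was 0.10 and that of all genes tested was -0.02. The call count fell to 5 (4 up, 1 down) without NSCL61 array 1 and to 5 (5 up, 0 down) without NSCL61 array 2, which also lowered the share of all genes called to 6.94% and 7.21%. At an unadjusted p under 0.05, 4 members were lower without NSCL61 array 2. Scaling to the poly-A spike-in controls lowered every log2 fold change by 0.40 and left 3 members up and 3 down, and scaling to the hybridisation controls lowered them by 0.22 and left 4 up and 5 down. All directions given here hold on the authors' own scale. In bulk RNA a change in the number of cells of a type and a change in RNA per cell cannot be told apart.

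**Figure D1:**
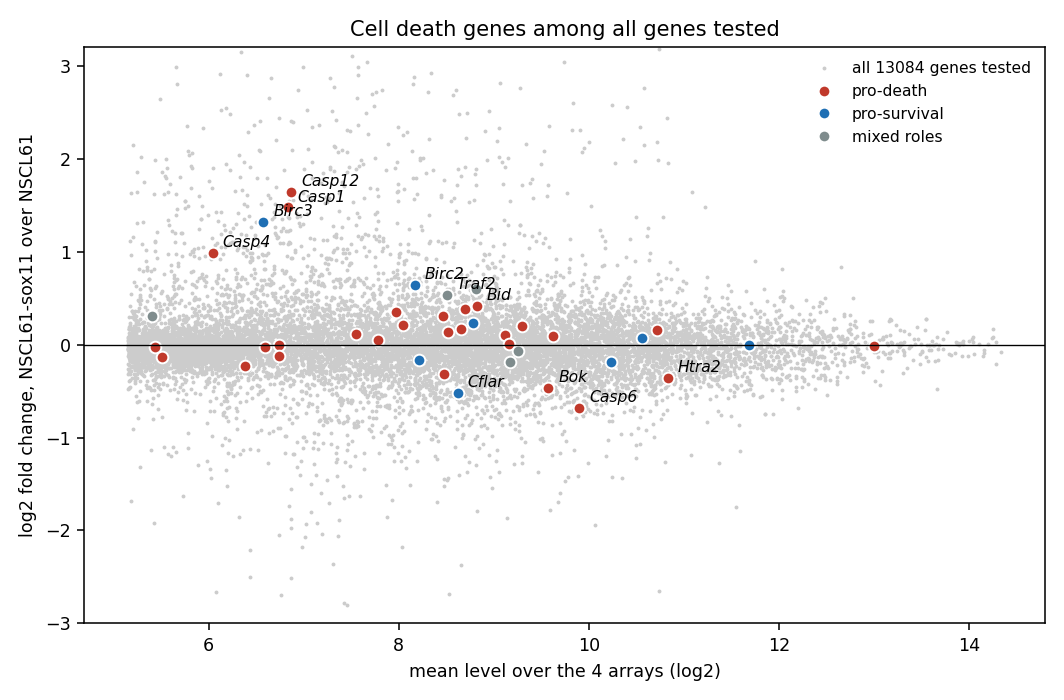
Log2 fold change (NSCL61-sox11 over NSCL61, vertical) against the mean level over the 4 arrays (log2, horizontal) for all 13084 genes tested (grey) and the 41 tested members, coloured by side; called members are named and 19 genes lie outside the plotted range of -3 to 3.2. Most members lie within the band of the other genes, and Casp12, Casp1, Birc3 and Casp4 stand highest among them.

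Members that promote death and members that protect from it each held genes that rose and genes that fell. Of 28 tested pro-death members, 4 rose, 3 fell and 21 did not pass, with a median log2 fold change of 0.10. The 25% called compares with 19.2% of all genes tested. Without the 3 inflammatory caspases, 1 of the remaining 25 rose and 3 fell, which is 16%, and their median was 0.05. All 3 had risen, so leaving them out had to lower the share called and could not raise the median. Of 8 tested pro-survival members, 2 rose, 1 fell and 5 did not pass, so 37.5% were called. Their median of 0.03 was below 0 when NSCL61 array 1 (-0.03) or NSCL61-sox11 array 2 (-0.10) was left out. It was higher, at 0.10 and 0.18, when the other array of each line was left out. The assignment to sides follows textbook roles, and Bcl2l13, the TRAF adaptors, Daxx and Pdcd4 were kept apart as mixed; of 5 tested there, Traf2 rose and 4 did not pass, with a median of 0.30. These medians are descriptions of the lists, and no difference between the sides was tested.

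**Figure D2:**
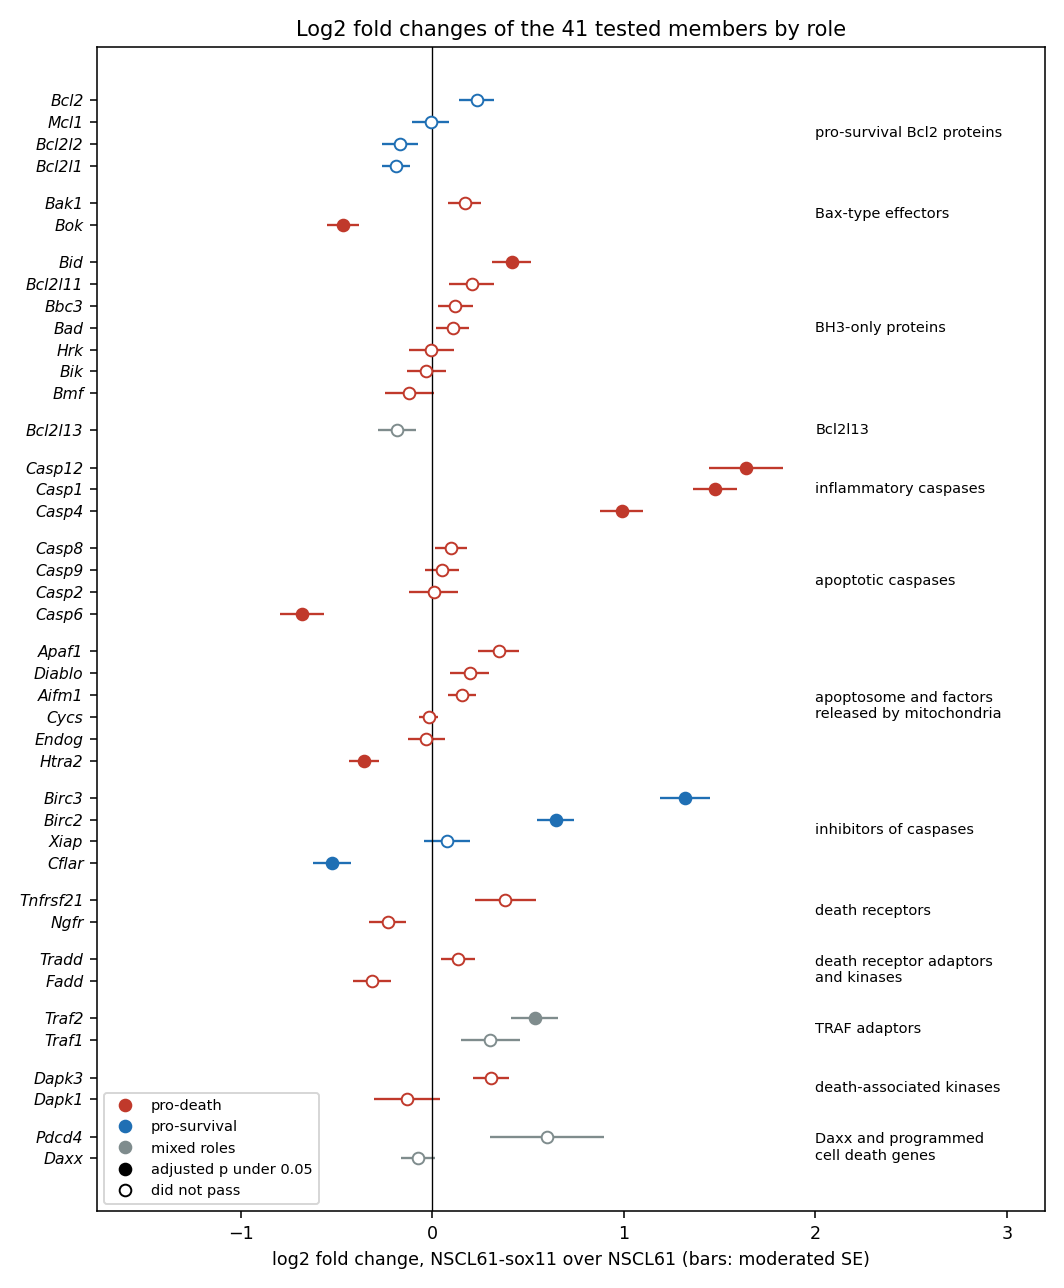
Log2 fold change (NSCL61-sox11 over NSCL61, horizontal, bars are moderated SE) of each of the 41 tested members, grouped by role from top to bottom; filled points passed the adjusted p of 0.05. The 3 inflammatory caspases and Birc3 lie at 0.99 to 1.64, and the 14 tested Bcl2 family members lie between -0.47 and 0.41.

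Of the 14 tested members of the Bcl2 family, Bid rose, Bok fell and 12 did not pass. That is 14.3% called, close to the 19.2% of all genes tested, and all 14 log2 fold changes were below 0.5 in size, as were 86.6% of those of all genes tested. Among the pro-survival genes, 0 of 4 were called with limma, and 2 of 4 had an unadjusted p under 0.05. Mcl1, the short-lived guardian of many progenitor cells, lay at 11.55 and 11.80 in NSCL61-sox11, against 11.63 and 11.74 in NSCL61. Its arrays overlapped, and the log2 fold change was -0.01 (95% interval -0.24 to 0.22, adjusted p = 0.96). Of its 6 tested probe sets, the second in level gave -0.23 without overlap and did not pass (adjusted p = 0.083). The rest gave -0.090 to 0.0052, with overlap. Bcl2l1, which encodes Bcl-xL, lay at 10.17 and 10.11 in NSCL61-sox11 and at 10.34 and 10.32 in NSCL61. The NSCL61-sox11 arrays were both lower, by 0.19 on average (adjusted p = 0.13), and another of its probe sets, second in level, was called lower by 0.44 (adjusted p = 0.017). Bcl2 itself had a log2 fold change of 0.23 (95% interval 0.01 to 0.45, adjusted p = 0.14), and Bcl2l2 one of -0.17 (adjusted p = 0.28).

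Of the pore-forming effectors, Bok fell, and Bak1 did not pass at 8.73 and 8.73 in NSCL61-sox11, against 8.53 and 8.61 in NSCL61 (adjusted p = 0.25). Bok, a Bax relative that needs no BH3-only activator, lay at 9.36 and 9.32 in NSCL61-sox11, against 9.76 and 9.85 in NSCL61. The arrays did not overlap, and the fall was 1.38-fold (log2 fold change -0.47, SE 0.082, adjusted p = 0.013). Leaving out NSCL61 array 1 or NSCL61 array 2 ended the call, at adjusted p = 0.083 and 0.13.

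Among the 7 BH3-only genes, 1 rose and 6 did not pass, so 14.3% were called, against 19.2% of all genes tested. Bid, which carries the death receptor signal to mitochondria once Casp8 has cut it, lay at 8.97 and 9.08 in NSCL61-sox11, against 8.52 and 8.70 in NSCL61. The NSCL61-sox11 arrays were both higher, and the rise was 1.33-fold (log2 fold change 0.41, SE 0.10, adjusted p = 0.040). Its other 2 tested probe sets gave 0.13 and 0.15, and neither passed (adjusted p = 0.51 and 0.54). It did not pass when NSCL61 array 1, NSCL61 array 2 or NSCL61-sox11 array 2 was left out, at adjusted p = 0.25, 0.10 and 0.095. With poly-A scaling the log2 fold change was 0.010 (adjusted p = 0.98), with hybridisation control scaling 0.20 (adjusted p = 0.41) and with the mean of its probe sets 0.23 (adjusted p = 0.19). Median centring (adjusted p = 0.055) and a fit without an intensity trend (adjusted p = 0.052) ended the call as well. The other tested BH3-only genes were Bad, Bik, Bmf, Bbc3, Hrk and Bcl2l11, which encodes Bim, with log2 fold changes between -0.12 and 0.21 (adjusted p from 0.29 to 0.98). Bbc3, which encodes the p53-induced protein Puma, lay at 7.64 and 7.58 in NSCL61-sox11 and at 7.49 and 7.49 in NSCL61.

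Bmf, a BH3-only gene linked to loss of cell attachment, was the member whose probe sets disagreed most. Its brightest probe set, whose name ends in _x_at, lay at 6.84 and 6.53 in NSCL61-sox11 and 6.78 and 6.82 in NSCL61, and did not pass (log2 fold change -0.12, adjusted p = 0.59). Its next probe set lay at 5.94 and 6.04 in NSCL61-sox11, against 4.50 and 4.89 in NSCL61, a called rise of 1.30 (SE 0.15, adjusted p = 0.0031) whose NSCL61 levels were under the lowest mean tested, 5.15. The dimmest probe set gave 0.34 in the fit of all probe sets (adjusted p = 0.16). Which of these reads Bmf was not tested. Bcl2l13, a Bcl2 relative of the outer mitochondrial membrane, did not pass (log2 fold change -0.18, adjusted p = 0.27). Its other tested probe set had the opposite sign, at 0.16, and did not pass either (adjusted p = 0.40).

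**Figure D3:**
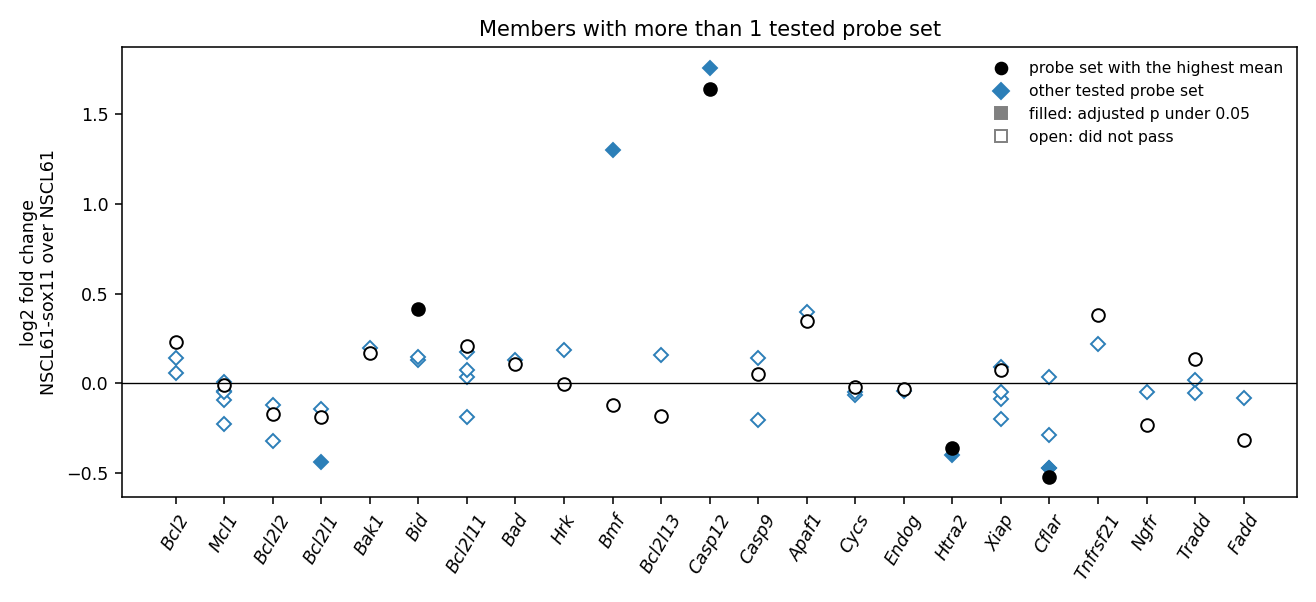
Log2 fold change (NSCL61-sox11 over NSCL61, vertical) of every tested probe set of the 23 members with more than 1, ordered by role; black circles are the probe sets with the highest mean, blue diamonds the others, and filled symbols passed the adjusted p of 0.05. The Casp12 and Htra2 probe sets lie close together, while those of Bmf lie at -0.12 and 1.30.

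All 3 inflammatory caspases rose in NSCL61-sox11. Casp1, which matures interleukin-1 beta and cuts gasdermin D, lay at 7.49 and 7.65 in NSCL61-sox11, against 6.00 and 6.18 in NSCL61. The lines did not overlap, and the rise was 2.78-fold (log2 fold change 1.48, SE 0.12, adjusted p = 0.00073). Casp4, known in mice as caspase-11 and a sensor of cytosolic lipopolysaccharide, lay at 6.52 and 6.56 in NSCL61-sox11, against 5.45 and 5.64 in NSCL61. It rose 1.98-fold, with NSCL61 close to the filter (log2 fold change 0.99, SE 0.11, adjusted p = 0.0028). Casp12, a caspase of the endoplasmic reticulum that is grouped with Casp1 by sequence, lay at 7.51 and 7.86 in NSCL61-sox11, against 5.80 and 6.29 in NSCL61. It rose 3.12-fold (log2 fold change 1.64, SE 0.19, adjusted p = 0.0033), and its other probe set gave 1.76 (adjusted p = 0.00088). Casp1, Casp4, Casp12 and Birc3 were each called without any 1 of the 4 arrays. With poly-A scaling Casp1 and Casp12 were still called, at 1.07 and 1.24, and Casp4 was not (0.58, adjusted p = 0.18).

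**Figure D4:**
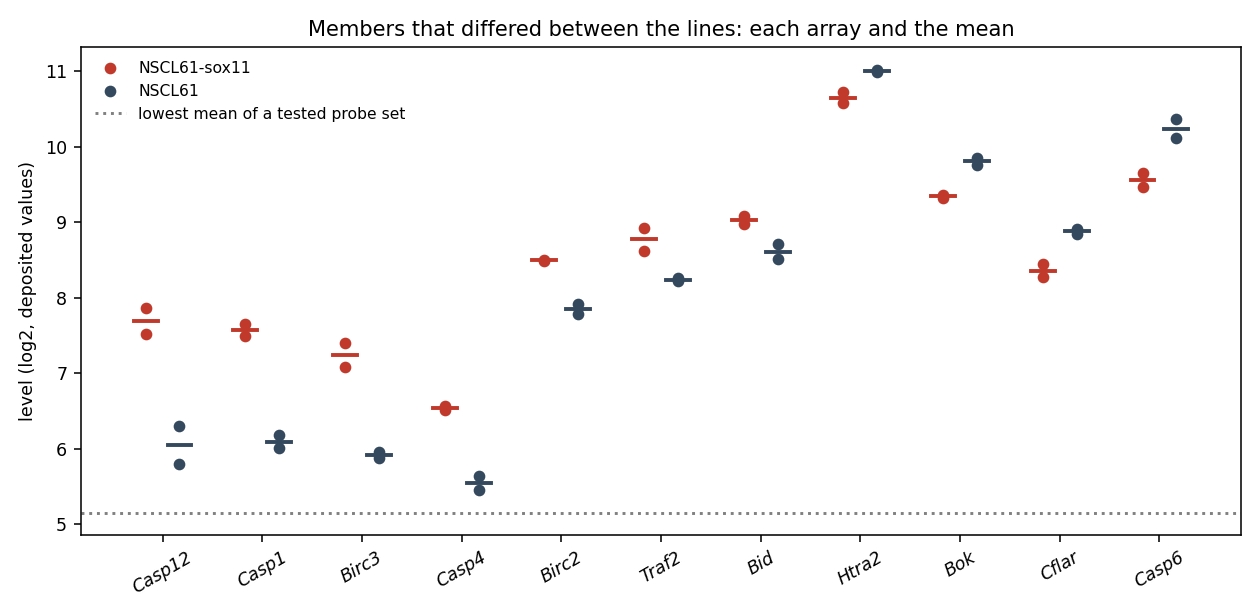
Level on each array (log2, vertical; points) and the mean of the 2 arrays (bars) of the 11 called members, with NSCL61-sox11 in red left of NSCL61 in dark blue; the dotted line marks the filter at 5.15. Casp12, Casp1, Birc3 and Casp4 lie below 6.5 in NSCL61 and at 6.52 to 7.86 in NSCL61-sox11, while Casp6, Cflar, Bok and Htra2 lie above 8.2 in both lines.

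The inflammatory caspase genes and the Birc2 and Birc3 genes form 2 separate groups on mouse chromosome 9. Of 5 members tested on that chromosome, 5 rose, and of 36 tested members elsewhere, 2 rose, 4 fell and 30 did not pass. The 16.7% called elsewhere is close to the 19.2% of all genes tested. This split was made after the values were seen. In the gene order of the mouse assembly GRCm38.p6, Casp1, Casp4 and Casp12 lie side by side, and 15 protein-coding genes separate them from Birc2 and Birc3. Of these, 7 were tested, among them Mmp13, Mmp3, Mmp10 and Mmp7 of the matrix metalloproteinase cluster. Limma called 0 of the 7, and 2 had an unadjusted p under 0.05, with log2 fold changes between -0.43 and 0.30. The SE was 0.83 for Mmp13, 0.48 for Mmp3 and 0.28 for Mmp10, against 0.096 to 0.19 for the 5 members. At this spread a rise like that of Birc2 could go unseen in Mmp13, Mmp3 and Mmp10. Of the 5 tested among the 4 genes on each outer side, which include Yap1, limma called 0, and none reached an unadjusted p of 0.05, with log2 fold changes between -0.19 and 0.043. The other members on chromosome 9 are Dapk2, which lay below the level filter, and Bcl2a1a, which had no probe set to itself. Neither was tested in the main fit. In the limma fit of all probe sets Dapk2 was called higher by 0.99 (adjusted p = 0.0025), with NSCL61 under the filter.

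**Figure D5:**
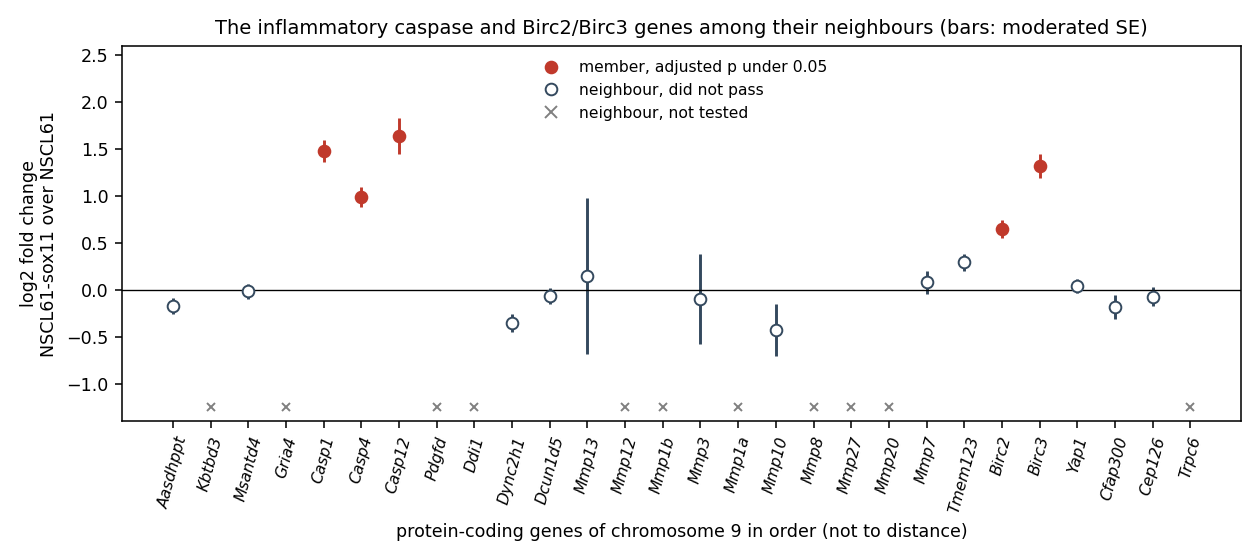
Log2 fold change (NSCL61-sox11 over NSCL61, vertical, bars are moderated SE) of the protein-coding genes of chromosome 9 from 4 before Casp1 to 4 after Birc3, in gene order and not to distance; crosses mark genes that were not tested. The 5 members lie at 0.64 to 1.64 and the tested neighbours at -0.43 to 0.30.

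The sequences before the start sites of these 5 genes are shown because the genes rose together. They are the first 250 bases of the RefSeq promoter windows of build GRCm38.p6, at chr9:5298267-5298516 for Casp1, chr9:5308599-5308848 for Casp4 and chr9:5345226-5345475 for Casp12, all on the + strand. Those of Birc2 and Birc3 lie at chr9:7837058-7837307 and chr9:7873171-7873420 on the - strand. They run 5′ to 3′ towards the start site, and capitals mark ACAAAG or ACAATG on either strand, core sequences that Sox proteins bind.
Casp1: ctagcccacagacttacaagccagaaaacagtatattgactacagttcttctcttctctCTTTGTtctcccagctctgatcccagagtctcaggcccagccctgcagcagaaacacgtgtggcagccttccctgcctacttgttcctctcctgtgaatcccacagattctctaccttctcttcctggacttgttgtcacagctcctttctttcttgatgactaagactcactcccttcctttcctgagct
Casp4: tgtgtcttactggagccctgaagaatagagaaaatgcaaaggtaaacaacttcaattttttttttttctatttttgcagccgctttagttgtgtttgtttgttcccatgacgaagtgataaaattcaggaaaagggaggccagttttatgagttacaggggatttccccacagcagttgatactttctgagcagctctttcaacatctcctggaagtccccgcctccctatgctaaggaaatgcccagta
Casp12: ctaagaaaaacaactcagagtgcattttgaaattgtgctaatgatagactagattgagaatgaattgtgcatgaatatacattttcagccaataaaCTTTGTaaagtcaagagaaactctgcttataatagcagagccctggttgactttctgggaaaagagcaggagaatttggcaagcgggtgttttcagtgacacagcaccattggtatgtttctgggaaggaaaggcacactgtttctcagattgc
Birc2: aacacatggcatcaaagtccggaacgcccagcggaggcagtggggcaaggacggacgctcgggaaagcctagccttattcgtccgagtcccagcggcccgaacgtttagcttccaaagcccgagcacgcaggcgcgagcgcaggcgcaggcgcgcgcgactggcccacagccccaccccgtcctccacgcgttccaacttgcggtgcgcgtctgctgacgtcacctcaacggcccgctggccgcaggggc
Birc3: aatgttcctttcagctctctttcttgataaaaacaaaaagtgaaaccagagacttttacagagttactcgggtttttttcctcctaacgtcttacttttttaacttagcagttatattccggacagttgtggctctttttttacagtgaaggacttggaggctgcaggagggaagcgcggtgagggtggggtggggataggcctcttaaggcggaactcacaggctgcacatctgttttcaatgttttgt
The Casp1 and Casp12 windows hold 1 match each, with no overlap, and those of Casp4, Birc2 and Birc3 hold none. Casp4 and Birc2 each have 2 windows listed, and only the first was read. Over all 27025 windows of this length 25.5% hold a match, and 10 of the 47 members in the table do. The caspase windows have few CpG dinucleotides, 1 in Casp1, 3 in Casp4 and 1 in Casp12, against 6 in Birc3 and 31 in Birc2, where the median over all windows was 6 and over the members 16. A match is a description of these letters only.

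Of the 4 apoptotic caspases, Casp6 fell and 3 did not pass, so 25% were called, against 19.2% of all genes tested. Casp6, an executioner caspase that cuts nuclear lamins and takes part in axon degeneration, lay at 9.46 and 9.65 in NSCL61-sox11, against 10.11 and 10.37 in NSCL61. The fall was 1.60-fold (log2 fold change -0.68, SE 0.12, adjusted p = 0.012), and the call needed NSCL61 array 2, without which the adjusted p was 0.090. Casp8, the initiator of the receptor pathway, lay at 9.72 and 9.62 in NSCL61-sox11, against 9.57 and 9.58 in NSCL61 (log2 fold change 0.097, 95% interval -0.10 to 0.30). Casp9, the initiator of the mitochondrial pathway, had a log2 fold change of 0.050 (95% interval -0.17 to 0.27), and Casp2, an initiator that responds to genome damage, one of 0.0073 (95% interval -0.30 to 0.32).

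The apoptosome and the factors that mitochondria release held 1 gene that fell, and 5 of 6 did not pass. The 16.7% called is close to the 19.2% of all genes tested. Htra2, a protease that opposes IAP proteins once released, lay at 10.72 and 10.58 in NSCL61-sox11, against 11.02 and 10.99 in NSCL61. The fall was 1.28-fold (log2 fold change -0.36, SE 0.077, adjusted p = 0.026). Its other probe set gave -0.40 (adjusted p = 0.034), and both have names ending in _s_at, which can read related transcripts. Without NSCL61 array 1 the adjusted p was 0.19, and without NSCL61 array 2 it was 0.16. With poly-A scaling the value was -0.76 (adjusted p = 0.056), and without an intensity trend the adjusted p was also 0.056. Cycs, the cytochrome c gene and the brightest member, lay at 12.98 and 12.99 in NSCL61-sox11, against 13.03 and 12.97 in NSCL61, a log2 fold change of -0.018 (95% interval -0.14 to 0.10). Apaf1, the scaffold of the apoptosome, lay at 8.07 and 8.22 in NSCL61-sox11, against 7.72 and 7.88 in NSCL61. Its arrays did not overlap, but the difference of 0.35 did not pass (adjusted p = 0.075), nor did 0.40 on its other probe set (adjusted p = 0.089). Diablo, the Smac gene, Aifm1 and the nuclease gene Endog had log2 fold changes between -0.031 and 0.20.

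The caspase inhibitors moved in both directions, with 2 of 4 up and 1 down. That is 75% called in a list of 4, against 19.2% of all genes tested. Birc3, the cIAP2 gene and a target of NF-kB, lay at 7.39 and 7.08 in NSCL61-sox11, against 5.95 and 5.88 in NSCL61. It rose 2.50-fold (log2 fold change 1.32, SE 0.13, adjusted p = 0.0018), while its other probe set lay under the filter at 3.89 to 4.20 on all 4 arrays. Birc2, the cIAP1 gene, lay at 8.50 and 8.49 in NSCL61-sox11, against 7.78 and 7.92 in NSCL61. It rose 1.56-fold (log2 fold change 0.64, SE 0.096, adjusted p = 0.0075), but leaving out NSCL61 array 1 (adjusted p = 0.070) or scaling to poly-A controls (0.24, adjusted p = 0.51) or hybridisation controls (0.43, adjusted p = 0.073) ended the call. Xiap, the direct inhibitor of executioner caspases, overlapped between the lines at 10.43 and 10.75 in NSCL61-sox11, against 10.44 and 10.59 in NSCL61 (log2 fold change 0.077, adjusted p = 0.72).

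Cflar encodes the decoy of Casp8, c-FLIP, and fell on its brightest probe set. It lay at 8.27 and 8.44 in NSCL61-sox11, against 8.85 and 8.91 in NSCL61. The fall was 1.44-fold (log2 fold change -0.52, SE 0.099, adjusted p = 0.017). Of its other 4 tested probe sets, 2 were called lower, both by 0.47, and the dimmer 2 gave 0.036 and -0.29 without passing. Neither NSCL61 array could be left out with the call kept, at adjusted p = 0.097 without array 1 and 0.12 without array 2, and the mean of the probe sets gave -0.34 (adjusted p = 0.055).

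The death receptors and their adaptors held no called member. With limma 0 of 2 tested receptors and 0 of 2 tested adaptors were called, short lists set against 19.2% called of all genes tested. Of the receptors 0 and of the adaptors 1 had an unadjusted p under 0.05. Tnfrsf21, known as death receptor 6 and as a trigger of axon pruning, lay at 8.65 and 9.12 in NSCL61-sox11, against 8.52 and 8.48 in NSCL61. Its NSCL61-sox11 arrays were both higher but 0.48 apart, and the difference of 0.38 did not pass (adjusted p = 0.16). When NSCL61-sox11 array 1 was left out it was 0.62 and passed (adjusted p = 0.0088), and when NSCL61-sox11 array 2 was left out it was 0.14 (adjusted p = 0.47). Poly-A scaling gave -0.023 (adjusted p = 0.95). Ngfr, the p75 neurotrophin receptor, lay at 6.29 and 6.23 in NSCL61-sox11 and 6.51 and 6.48 in NSCL61 (log2 fold change -0.23, adjusted p = 0.16). Fadd, the adaptor that binds Casp8, lay at 8.37 and 8.26 in NSCL61-sox11, against 8.57 and 8.69 in NSCL61. Its difference of -0.31 did not pass (adjusted p = 0.076) but did with hybridisation control scaling (-0.53, adjusted p = 0.021), and Tradd, the adaptor of tumour necrosis factor receptor 1, had one of 0.13 (adjusted p = 0.37). Below the filter, Tnfrsf25, death receptor 3, lay at 4.94 and 5.00 in NSCL61-sox11 and 4.85 and 4.83 in NSCL61, and the necroptosis kinase gene Ripk3 at 4.23 and 4.18 in NSCL61-sox11 and 4.24 and 4.26 in NSCL61.

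Of the TRAF adaptors, Traf2 rose. Traf2, which brings Birc2 and Birc3 proteins to tumour necrosis factor receptors, lay at 8.93 and 8.62 in NSCL61-sox11, against 8.26 and 8.21 in NSCL61. The rise was 1.45-fold (log2 fold change 0.54, SE 0.12, adjusted p = 0.031). It missed the threshold when NSCL61 array 1, NSCL61 array 2 or NSCL61-sox11 array 1 was left out, at adjusted p = 0.14, 0.16 and 0.060, and with poly-A scaling the value was 0.13 (adjusted p = 0.72), and with hybridisation control scaling 0.32 (adjusted p = 0.19). Traf1, a partner of Traf2, lay at 5.76 and 5.35 in NSCL61-sox11 and 5.30 and 5.20 in NSCL61, close to the filter, and did not pass (adjusted p = 0.24).

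The death-associated kinases and the remaining genes were not called in this fit. Dapk3 lay at 8.68 and 8.56 in NSCL61-sox11, against 8.28 and 8.35 in NSCL61 (log2 fold change 0.31, adjusted p = 0.072), and Dapk1 had a log2 fold change of -0.13 (adjusted p = 0.66). For the death-associated kinases 0 of 2 were called with limma, against 19.2% of all genes tested, and 1 had an unadjusted p under 0.05. Dapk2 lay at 5.36 and 5.38 in NSCL61-sox11, against 4.47 and 4.28 in NSCL61, and in the fit of all probe sets it was called higher by 0.99 (SE 0.12, adjusted p = 0.0025), with NSCL61 under the filter. Pdcd4, an inhibitor of protein synthesis, lay at 8.80 and 9.43 in NSCL61-sox11, against 8.11 and 8.91 in NSCL61. Its arrays overlapped and differed within each line more than those of the other members, and the difference of 0.60 did not pass (SE 0.30, adjusted p = 0.23). It was 0.20 and 1.00 when NSCL61 array 1 or 2 was left out, and 0.91 and 0.29 for NSCL61-sox11 array 1 or 2, with adjusted p from 0.061 to 0.74. Daxx, a histone chaperone first described as a Fas partner, gave -0.073 (adjusted p = 0.64).

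Beyond the members, 73 further cell death genes were listed, of which 66 had a probe set of their own and 58 were tested. Of these 6 rose, 4 fell and 48 did not pass, so 17.2% were called, against 19.2% of all genes, and their median log2 fold change was -0.03. Pmaip1, which encodes the BH3-only protein Noxa, lay at 8.19 and 8.06 in NSCL61-sox11, against 6.16 and 6.40 in NSCL61. It rose 3.60-fold (log2 fold change 1.85, SE 0.12, adjusted p = 0.00036), while Bnip3, a BH3-like gene of mitophagy, fell 1.39-fold (adjusted p = 0.016). These were the called genes among 13 tested relatives of the Bcl2 family, or 15.4%.

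Among 20 tested death ligands, receptors and adaptors, 3 rose and 1 fell. The 20% called is close to the 19.2% of all genes tested. Mlkl, the pore-forming protein of necroptosis, lay at 7.16 and 7.54 in NSCL61-sox11, against 5.73 and 5.04 in NSCL61, a 3.90-fold rise (log2 fold change 1.96, SE 0.24, adjusted p = 0.0039), with the second of the NSCL61 arrays under the filter. Ripk3, which activates Mlkl, lay below the filter in both lines. Tnfrsf1b, the second receptor of tumour necrosis factor, which signals through Traf2, lay at 7.89 and 8.16 in NSCL61-sox11, against 6.47 and 6.41 in NSCL61, a log2 fold change of 1.59 (SE 0.12, adjusted p = 0.00064). With the mean of its 2 tested probe sets the value was 0.88 (adjusted p = 0.0023), so the dimmer probe set changed less than the brightest. The death receptor gene Fas lay at 6.17 and 6.23 in NSCL61-sox11, against 4.88 and 5.30 in NSCL61, a 2.16-fold rise (adjusted p = 0.0058) that was lost with poly-A scaling (0.70, adjusted p = 0.096). Its NSCL61 mean of 5.09 lay under the filter at 5.15, so Fas was tested through its level in NSCL61-sox11, and the fold rests on a dim NSCL61 value. Pdcd2 fell by 0.33 (log2, adjusted p = 0.035), and did not pass when NSCL61 array 1, NSCL61 array 2 or NSCL61-sox11 array 2 was left out, at adjusted p = 0.25, 0.17 and 0.070, or with poly-A scaling (-0.73, adjusted p = 0.074).

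The other lists held smaller log2 fold changes. Of the IAP and survival list 10% were called and of the caspase list 20%, against 19.2% of all genes tested. Of 10 tested IAP genes and survival factors, 1 rose: Tnfaip3, the A20 brake on NF-kB, by 0.73 (SE 0.19, adjusted p = 0.044). That call ended when NSCL61 array 1, NSCL61 array 2 or NSCL61-sox11 array 1 was left out, at adjusted p = 0.078, 0.21 and 0.089. Tnfaip3 also missed the threshold with the mean of its probe sets (0.43, adjusted p = 0.10), quantile normalization (0.68, adjusted p = 0.065), no intensity trend (adjusted p = 0.057) and poly-A scaling (0.33, adjusted p = 0.40). Of 15 tested caspase substrates and regulators, Casp8ap2 rose by 0.37 (adjusted p = 0.024), and the mitochondrial channel genes Vdac2 and Vdac1 fell by 0.34 (adjusted p = 0.0086) and 0.21 (adjusted p = 0.046). Without NSCL61 array 1 the adjusted p was 0.13 for Casp8ap2, 0.10 for Vdac2, 0.21 for Vdac1 and 0.079 for Bnip3. Without NSCL61 array 2 it was 0.19, 0.11, 0.33 and 0.14 for the same genes, and without NSCL61-sox11 array 2 Vdac1 had 0.058. Casp8ap2 turned to -0.035 with poly-A scaling (adjusted p = 0.92) and was 0.15 with hybridisation control scaling (adjusted p = 0.52). Poly-A scaling also ended the calls of Vdac2 (-0.75, adjusted p = 0.061) and Vdac1 (-0.61, adjusted p = 0.13). Among all 58, 4 were called higher and 0 lower without either NSCL61 array in turn, and 7 were called lower without NSCL61-sox11 array 1. Poly-A scaling left 3 higher and 1 lower, and hybridisation control scaling 5 higher and 11 lower.

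Markers of other cell types were set beside these values, since inflammatory caspases and Birc3 are abundant in immune cells. The share called over all genes tested was 19.2%, with 10.0% higher and 9.19% lower. Of 10 markers of microglia and blood cells, 5 lay below the filter, among them Ptprc and Itgam, and of the 5 tested limma called 0, with 0 at an unadjusted p under 0.05. The mean level of that list was 5.13 and 5.03 in NSCL61-sox11, against 5.16 and 5.07 in NSCL61. Of 7 markers of fibroblasts and meninges, 6 were tested and 4 rose, so 66.7% were called. The mean level of that list was 7.95 and 8.57 in NSCL61-sox11, against 6.39 and 7.003 in NSCL61. Col1a1 was higher by 2.99, and Lum lay below the filter in both lines. Of 4 tested endothelial and mural markers, Rgs5 rose (25% called). The list's mean level was 5.37 and 5.50 in NSCL61-sox11, against 5.19 and 5.12 in NSCL61. Of 3 tested neuronal markers, Tubb3 rose (33.3% called). Of 4 tested markers of oligodendrocyte lineage cells and astrocytes limma called 0, with 1 at an unadjusted p under 0.05. The part of any of these cell types in the changes above, microglia and blood cells included, was not tested.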

How the data were processed

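Per the labels' protocols, biotin-labelled target was made from total RNA of 2 samples per line, each on 1 Affymetrix M430_2 array. The authors deposited 1 processed value for each of 45101 probe sets per array, read here as log2 from the range of 2.13 to 14.62, so the base is inferred. How the authors summarised and normalized these log2 values before they were deposited is not stated in the labels or headers. Gene names came from GEO's annotation of the platform, checked by gene identifier against the RefSeq gene table of GRCm38.p6, which updated 0 symbols. Those with several symbols (932) or none (9160) were left unnamed, and 64 control probe sets were left out. A two-sided limma 3.58.1 fit (R 4.3.3; lmFit, then eBayes with trend) compared the lines over the brightest 60% of probe sets by mean, 27022 in total, with Benjamini-Hochberg adjustment over them. Total degrees of freedom were 6.36, and 95% intervals use them. The 2 arrays per line limit the precision. The members and lists were chosen with earlier results of these data known. By rule the text names every called member, the 2 brightest tested members of each role without one, and up to 5 called genes with the largest change in each further list whose arrays do not overlap. The other members are given for completeness, and Mmp, Yap1 and marker genes were chosen after their values were seen. Alternatives changed the scaling, the filter, the probe set of a gene, the variance prior, the replicate block and each array. Figures were drawn with matplotlib 3.10.9.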

Additional observations from a re-analysis of the deposited data

How the results depend on the processing

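Casp1, Casp12 and Birc3 were called higher under each of the 14 alternatives, with log2 fold changes of 1.07 to 1.57, 1.24 to 1.89 and 0.92 to 1.48. The number of members called higher, 7, was 3 with poly-A scaling, 4 with hybridisation control scaling, 12 with the replicate block, and 4 to 7 without 1 array. The number called lower, 4, was 0 to 4 without 1 array. Among the further cell death genes, whose alternatives were added after seeing the data, 6 were higher (3 with poly-A scaling, 12 with the replicate block, 4 to 7 without 1 array) and 4 lower. The lower count was 1 with poly-A scaling, 11 with hybridisation control scaling, 2 without an intensity trend, 11 with the replicate block and 0 to 7 without 1 array. The pro-death median was -0.30 with poly-A scaling, -0.11 with hybridisation control scaling, 0.075 with median centring, 0.12 without _x_at and _s_at probe sets, and 0.067 to 0.11 without 1 array. The pro-survival median was -0.37 with poly-A scaling, -0.18 with hybridisation control scaling and, with the mean of a gene's probe sets, -0.051, and -0.10 to 0.18 without 1 array. Signs turned, all among values that did not pass except Casp8ap2, with poly-A scaling for Tnfrsf21 (-0.023), Tradd (-0.27), Dapk3 (-0.096) and Casp8ap2 (-0.035), with hybridisation control scaling for Tradd (-0.083), and for Mcl1 with quantile normalization (0.0063). Mcl1 ran from -0.13 to 0.12 and Dapk1 from -0.38 to 0.11 when 1 array was left out. The mean of a gene's probe sets lost Bid and Cflar and called Bmf. Among the further genes, Pdcd2 (adjusted p = 0.058) and Vdac1 (adjusted p = 0.16) lost their calls without an intensity trend, and Vdac1 also without a level filter (adjusted p = 0.070) and without _x_at and _s_at probe sets (adjusted p = 0.051). The replicate block kept all 11 calls and added Apaf1, Bcl2, Bcl2l1, Dapk3, Fadd, Pdcd4 and Tnfrsf21, with 36.9% of all genes called. The deviations of same-numbered arrays correlated at 0.41 over 2 pairs, but no label says that the numbers pair arrays. The scalings to control probe sets move all log2 fold changes by 1 amount; why the other calls moved was not tested.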
